A study of Populus x canadensis with 12 samples.

Results

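The hybrids 89 and 85 were compared with each other inside a single stage of water deprivation, moderate drought (D1). The 4 leaf libraries labelled D1 were chosen from the 12 of the series by their labels, 2 plants of hybrid 89 against 2 plants of hybrid 85. The 4 watered control (C) libraries, 2 plants of each hybrid, are given beside each difference as the baseline. The question was how far the leaf transcripts of the hybrids stood apart once water was withheld, and how much of that distance was already there in watered plants.

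All plants were greenhouse-grown rooted cuttings of offspring of a Populus deltoides mother and a Populus nigra father, a hybrid known as Populus x canadensis. The genotype labels give the hybrid number and a clone number, and the clone numbers differ for all 12 libraries. The D1 libraries are clones 12 and 24 of hybrid 85 and clones 10 and 15 of hybrid 89, called replicates 1 and 2 below, and the controls are clones 3 and 4 of hybrid 85 and clones 6 and 8 of hybrid 89. Watering of the drought plants stopped 8 or 13 days earlier, and the labels do not say which period belongs to D1. RNA came from leaves of single plants with differing relative water content. The content of each plant is not among the labels used here, so a difference between hybrids within D1 and a difference in how dry their plants had become cannot be told apart. With 2 plants a side, the comparison is between these plants. The remaining 4 libraries (2 of each hybrid under severe drought, D2) entered the estimate of spread and are shown where they add to a gene's description.

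As background, leaves that lose water close their stomata, make the hormone abscisic acid, slow growth and photosynthesis, and raise transcripts for protective proteins and sugars. Siblings from an interspecific cross carry different combinations of the parents' alleles, and their leaf transcripts can differ through alleles that act in every condition or through the pace at which each plant meets and answers the loss of water. The deposited table lists IDs only, not paired with names. Genes are therefore given by ID, with the chromosome number written in the ID and the coding length recovered from the values, and with no function. For the same reason leaf markers could not be checked against the tissue label, and no pathway lists are reported.

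Transcript levels are the deposited RPKM values, in which reads are scaled by gene length and by library total. In whole leaves, fewer cells of a type and less RNA per cell cannot be told apart. Library totals, recovered from the steps of the values, were 3181833 and 3199356 reads for the D1 plants of hybrid 85 and 4022385 and 4847233 reads for those of hybrid 89, so depth went with hybrid in D1. The controls held 2534325 to 10509089 reads. At the median coding length of 1056 bp, 3 reads amount to 0.586 to 0.893 RPKM in the D1 libraries, counting error alone considered. Replicates resembled each other closely in D1: Pearson's r of log2(RPKM + 1) across genes was 0.962 between the plants of hybrid 85 and 0.953 between those of hybrid 89, against 0.865 to 0.905 between hybrids. The D1 plants of hybrid 89 correlated with the controls of their own hybrid at 0.896 to 0.914, and as highly, at 0.913 for each plant, with replicate 1 of the hybrid 85 controls. Those of hybrid 85 correlated at 0.914 and 0.927 with replicate 1 of their controls, the deepest library of the series, and at 0.839 and 0.853 with replicate 2.

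In moderate drought the hybrids differed in many genes, in both directions and by large steps. Of 26863 genes tested on log2(RPKM + 1), 1030 had higher and 903 had lower levels in hybrid 89 (limma, Benjamini-Hochberg adjusted p below 0.05), together 7.2% of the genes, or 3.83% and 3.36% by direction. The median difference was 1.94 on the log2 scale among the genes higher in hybrid 89 and -1.99 among those lower, and 482 and 449 genes differed by more than 2. Among all genes tested the median was 0.10 in D1 and -0.19 in the controls. In the controls the same test called 65 genes higher (0.242%) and 85 lower (0.316%) in hybrid 89, together 0.558% of the genes. With all libraries thinned to equal depth, 690 genes were higher and 669 lower in D1. The fit borrows its estimate of spread from all 6 groups of 2 libraries. With the 4 D1 libraries alone no gene passed, although 7431 had an unadjusted p below 0.05, and leaving out a D1 plant cut the 1933 genes to 257 and 783 (replicates 1 and 2 of hybrid 85) or to 334 and 667 (replicates 1 and 2 of hybrid 89).

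**Figure D1:**
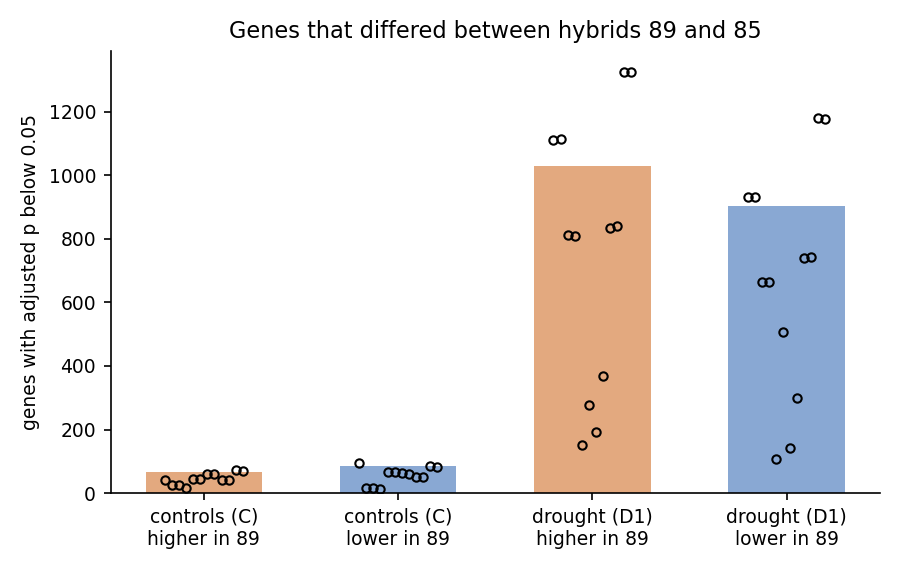
Number of genes (vertical axis) with adjusted p below 0.05 for hybrid 89 against hybrid 85, in controls and in moderate drought, by direction. Bars are the fit with all 12 libraries and circles the 12 fits that each leave out 1 library; the bars stand at 65 and 85 in controls and at 1030 and 903 in D1, and the lowest D1 circles at 151 and 106 come from fits without a D1 plant.

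Differences between the hybrid means and differences between single plants are given side by side, since a mean of 2 plants varies less than a single plant. In D1 5336 genes, 19.9% of those tested, differed by more than 1 on the log2 scale between the hybrid means. Between the 2 plants of a hybrid 2590 genes (hybrid 85) and 2682 genes (hybrid 89) did so. In the controls the hybrid means were more than 1 apart in 2687 genes, and the 2 plants of a hybrid in 2558 (hybrid 89) and 4049 (hybrid 85). At an unadjusted p below 0.05 stood 6218 genes (23.1%) in D1 and 3024 (11.3%) in C. Without any overlap of the D1 plants stood 15725 genes (58.5% of all tested), 9197 (34.2%) with higher and 6528 (24.3%) with lower values in hybrid 89. In the controls this held for 11089 genes (41.3%), 2835 (10.6%) higher and 8254 (30.7%) lower in hybrid 89.

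The balance of higher and lower genes rested on scaling. With quantile normalization 884 genes were higher and 1108 lower in hybrid 89 in D1, and with median-ratio scaling 861 and 1053, so the larger of the 2 counts changed side. In the controls the counts of 65 higher and 85 lower turned to 95 and 73 with quantile normalization. The count in the controls also rested on single libraries. The 150 genes called there became 40 without replicate 2 of hybrid 85, 43 or 30 when a control of hybrid 89 was dropped (replicate 1 or 2), and 91 without replicate 1 or replicate 2 of hybrid 85 in D2, which enters through the spread.

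The largest differences in D1 involved genes with few or no reads in the D1 leaves of 1 hybrid. Potri.006G062100.1 (chromosome number 6, coding length 324 bp) had 1.94 and 0 RPKM in the D1 plants of hybrid 85, from 2 reads in all, and 437 and 358 RPKM in those of hybrid 89. In the controls it stood at 64.9 and 119 RPKM in hybrid 85 and at 472 and 403 RPKM in hybrid 89. The D1 plants of hybrid 89 thus lay near the controls of their hybrid, and those of hybrid 85 far below every control. The log2 difference in D1 was 7.85 ± 0.53 (SE, limma adjusted p = 0.000158), and the difference of 2.30 ± 0.53 in the controls did not pass (limma adjusted p = 0.111). The change of 5.56 ± 0.74 from C to D1 did not pass either (limma adjusted p = 0.0616). Because hybrid 85 had only 2 reads in D1, the ratio of summed reads per library total, 408, has a wide exact counting interval of 113 to 3370 at the 95% level. Under severe drought its 4 values were between 0 and 1.31 RPKM in both hybrids.

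Potri.016G092500.1 (chromosome number 16, 315 bp) was read in hybrid 89 in every library and hardly in hybrid 85. It had no read in the D1 plants of hybrid 85 and 127 and 77.9 RPKM in those of hybrid 89, at least 67.1-fold higher against a floor of 3 reads over both plants of hybrid 85. The controls had 0.604 and 0 RPKM in hybrid 85 and 70.3 and 77.7 RPKM in hybrid 89. Here the hybrids stood apart to a like degree in watered leaves: the log2 difference was 6.65 ± 0.44 in D1 and 5.89 ± 0.44 in C (SE, limma adjusted p = 0.000158 and 0.000562).

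In the opposite direction, Potri.T100200.1 (213 bp, its ID naming no chromosome) had 295 and 96.9 RPKM in the D1 plants of hybrid 85 and 0 and 4.84 RPKM in those of hybrid 89. Its controls were at 148 and 44.3 RPKM and at 0.765 and 0 RPKM. No plant of hybrid 89 came near one of hybrid 85 in either stage, and the log2 differences of -6.14 ± 0.83 in D1 and -5.95 ± 0.83 in C were close (SE, limma adjusted p = 0.00357 and 0.0127). Potri.015G112300.1 (chromosome number 15, 795 bp) had 124 and 150 RPKM against 1.25 and 1.04 RPKM in D1, and 53.5 and 24.7 against 1.23 and 1.99 RPKM in C. Both D1 plants of hybrid 85 were above their controls while hybrid 89 stayed near 1 RPKM. Its log2 difference was -6.00 ± 0.38 in D1 and -3.86 ± 0.38 in C (SE, limma adjusted p = 0.000158 and 0.0024), and the change of -2.15 ± 0.54 from C to D1 did not pass (limma adjusted p = 0.136). How the authors counted reads shared by near-identical gene copies is unknown here, so the values of IDs with such copies are uncertain. How well reads of each parent's alleles matched the reference was not tested.

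A small part of the D1 differences was also called in watered plants. Of the 65 genes higher in hybrid 89 in C, 45 (69.2%) were among the 1030 higher in D1, where they made up 4.37%. Of the 85 lower in C, 52 (61.2%) were among the 903 lower in D1, or 5.76% of those. Of all genes tested, 3.83% were called higher and 3.36% lower in D1. The adjusted cut-off asks for a smaller unadjusted p in C, where fewer genes were called, which limits the shared part. The means compared in C and in D1 come from different plants, but both sets of calls use the same spread per gene, estimated over all 12 libraries, so the lists are not independent. Control differences leaned the same way for the D1 genes as a whole: 60.6% of the genes higher in D1 had a positive difference in C against 32.4% of all genes tested, and 81.4% of those lower in D1 had a negative one against 65.9%. The sizes were small, with a median control difference of 0.22 and -0.44, where all genes had -0.19. Control differences lay within 0.5 of zero on the log2 scale for 467 of the 1030 genes (45.3%) and for 455 of the 903 (50.4%), a smaller share than the 65.3% of all genes tested. Across all genes the differences in C and D1 correlated at r = 0.253, a description in which genes are not independent points.

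**Figure D2:**
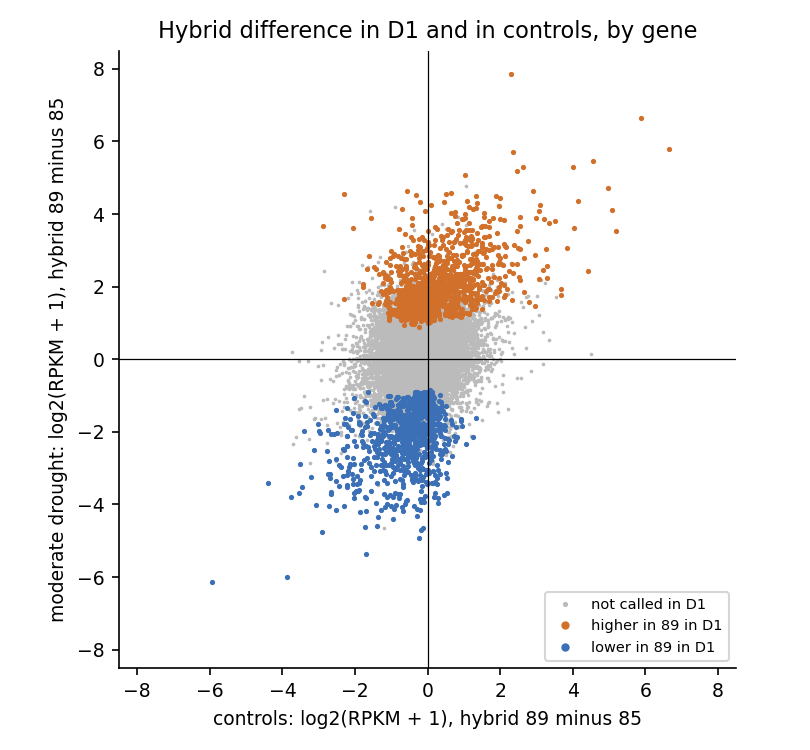
Difference between hybrids 89 and 85 in log2(RPKM + 1) for each of 26863 genes, in controls (horizontal axis) and in moderate drought (vertical axis). Coloured points are the 1030 genes higher and 903 genes lower in hybrid 89 in D1, of which 467 (45.3%) and 455 (50.4%) lie within 0.5 of zero on the control axis, against 65.3% of all genes; 45 and 52 were also called in the same direction in controls.

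Among genes whose control difference lay within 0.5 of zero, 599 met the conditions for being named, and the largest D1 differences show a transcript that left the control level in hybrid 85 only by these values. Potri.014G032300.1 (chromosome number 14, 630 bp) had 2.99 and 1.98 RPKM in the D1 plants of hybrid 85 and 103 and 59.6 RPKM in those of hybrid 89, with controls at 48.6 and 106 RPKM and at 88.4 and 37.6 RPKM. Potri.010G132500.1 (chromosome number 10, 726 bp) had 0.866 and 0 RPKM, from 2 reads, against 28.4 and 24.7 RPKM, with controls at 19.9 and 13 RPKM and at 28.9 and 17.4 RPKM. In both genes the D1 plants of hybrid 89 stood within the range of the controls, and those of hybrid 85 far below all 4 of them. The log2 differences in D1 were 4.53 ± 0.52 and 4.33 ± 0.52 (SE, limma adjusted p = 0.00183 and 0.00208). Their departures from the control difference, 4.84 ± 0.73 and 3.88 ± 0.73, did not pass (limma adjusted p = 0.0637 and 0.0942). The 2 reads of Potri.010G132500.1 in hybrid 85 give a ratio of 61.2 with an exact counting interval of 16.7 to 509. In D2 both genes were low in both hybrids, at 0.992 to 3.63 RPKM and at 0 to 1.72 RPKM.

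The 2 genes named as lower in hybrid 89 with alike controls showed the mirror image, a high level in hybrid 85. Choosing large differences with a mean of at least 5 RPKM over the D1 libraries favoured such a level. Potri.002G004900.1 (chromosome number 2, 1017 bp) had 85.3 and 49.5 RPKM in the D1 plants of hybrid 85 and 0.978 and 1.42 RPKM in those of hybrid 89. Its controls ranged from 1.28 to 6.6 RPKM over both hybrids, and its D2 values from 2 to 8.3 RPKM. Potri.001G158800.1 (chromosome number 1, 666 bp) had 54.3 and 18.8 RPKM against 0 and 0.62 RPKM in D1, with controls at 0.567 to 1.29 RPKM and D2 plants at 1.15 to 4.65 RPKM. The D1 plants of hybrid 85 were above every other library in both genes. The log2 differences in D1 were -4.91 ± 0.53 and -4.70 ± 0.54 (SE, limma adjusted p = 0.00149 and 0.00183). The second rests on 2 reads in hybrid 89, with a ratio of 108 and an exact counting interval of 29.3 to 897. For these 2 genes the departures from the control difference, -4.67 ± 0.75 and -4.51 ± 0.76, did not pass (limma adjusted p = 0.0637 and 0.0732).

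The same view can be taken for every gene called in D1, by asking whether both D1 plants of a hybrid lay outside the range of the 4 controls. Among the 1030 genes higher in hybrid 89, both plants of hybrid 85 were below all controls in 635 (61.7%), and both plants of hybrid 89 were above them in 500 (48.5%). Among the 903 genes lower in hybrid 89, both plants of hybrid 85 were above all controls in 710 (78.6%) and both plants of hybrid 89 below them in 296 (32.8%). Over all genes tested, the plants of hybrid 85 were below in 16% and above in 20.5%, and those of hybrid 89 below in 11.2% and above in 23.6%. In each direction, hybrid 85 left the control range in more of the called genes than hybrid 89. With median-ratio scaling the 4 counts were 658, 424, 700 and 395, and the order held. These counts were taken over genes called for a D1 difference, so they describe which hybrid lay outside the control range and are no test of it. Controls and D1 plants are different plants, so leaving the control range means a position outside it. A gene without reads in a control could not count as below, which limits those counts.

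**Figure D3:**
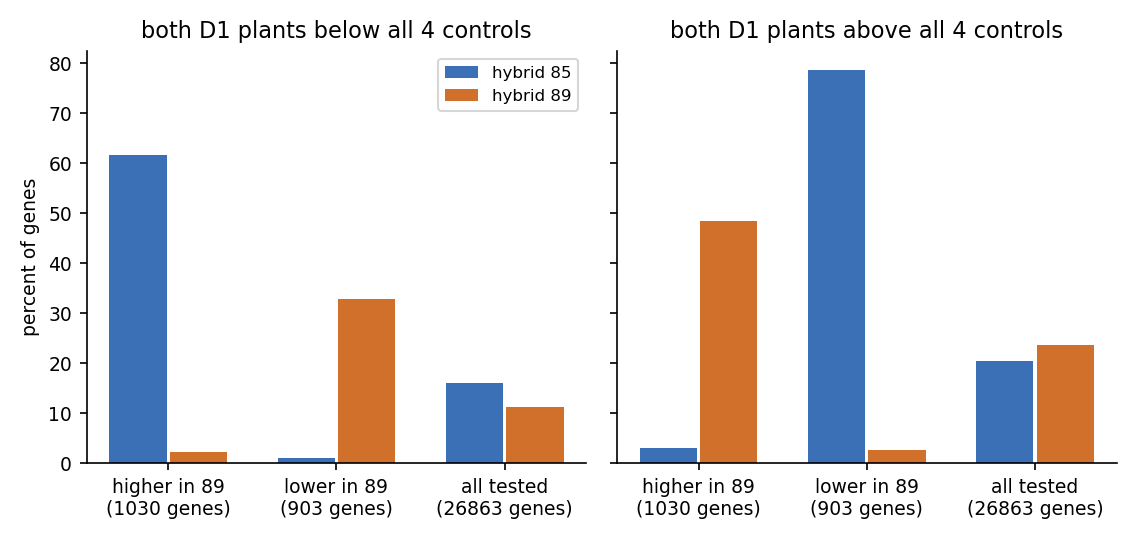
Percent of genes (vertical axis) in which both D1 plants of a hybrid lay below (left) or above (right) all 4 controls, for genes higher in hybrid 89 in D1, genes lower in it, and all genes tested. Hybrid 85 is blue and hybrid 89 orange; the tallest bars are hybrid 85 below controls at 61.7% and above controls at 78.6%.

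Genes called in D1 in which a single hybrid had left the control range fell into 4 groups. Their levels in severe drought are given as a description, since the D2 libraries entered the calls through the spread and the filter on low values. In 437 genes (42.4% of the 1030, against 9.57% of all genes tested) hybrid 85 alone was below the controls: the median level was 9.18 and 14.2 RPKM in the controls of hybrids 85 and 89, 1.14 and 12.6 RPKM in D1, and 0.642 and 0.945 RPKM in D2. Both hybrids were therefore low in D2 in this group, and hybrid 85 was close to that level in D1. The choice of genes set the D1 level of hybrid 85 below the controls and below hybrid 89 in D1. It also favours genes with high controls, so the lower D2 medians are a description only. Among all genes in this position, called or not, the D2 medians were 2.72 and 3.1 RPKM and the control medians 8.77 and 8.42 RPKM, a fall in the same direction. In 507 genes (56.1% of the 903, against 10.7% of all) hybrid 85 alone was above the controls, at a median of 20.9 RPKM in D1 against 2.15 RPKM in hybrid 89. Control medians of this group were 4.36 and 2.23 RPKM and D2 medians 6.46 and 3.87 RPKM. The choice of genes set the D1 level of hybrid 85 above the controls and above hybrid 89 in D1. Its place above the D2 medians was not required, but choosing genes for a high D1 level favours it, so it is a description only. All genes in this position had 15 RPKM in the D1 plants of hybrid 85 and D2 medians of 11.6 and 11.1 RPKM.

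Hybrid 89 alone was above the controls in 292 genes (28.3%, against 13.8% of all), with medians of 10.7 RPKM in its D1 plants, 1.49 RPKM in the D1 plants of hybrid 85, 2.16 and 2.89 RPKM in the controls of hybrids 85 and 89, and 2.42 and 5.11 RPKM in their D2 plants. The D2 medians of all genes in this position were 5.27 and 7.06 RPKM. In 107 genes (11.8%, against 4.77% of all) hybrid 89 alone was below, with medians of 2.62 RPKM in D1 against 14.2 RPKM in hybrid 85, controls at 13.6 and 7.53 RPKM, and D2 at 11.5 and 4.56 RPKM, where all genes in this position had 19.9 and 15.4 RPKM. In this last group the plants of hybrid 85 kept about the same median in all 3 stages. The choice of genes favoured a D1 level of hybrid 85 near the controls. Both hybrids had left the range in opposite directions in 176 genes higher (17.1%, against 1.27% of all) and 179 genes lower in hybrid 89 (19.8%, against 1.24%). Since the calls required a D1 difference, shares above those of all genes are part of the choice.

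**Figure D4:**
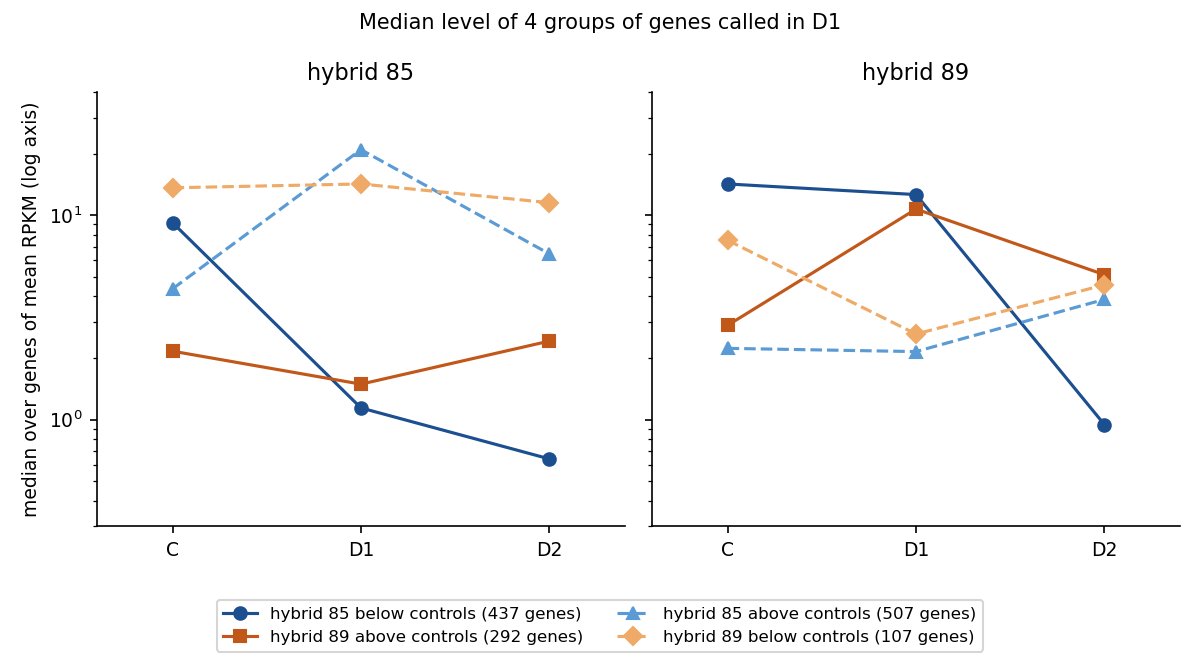
Median over genes of the mean RPKM (logarithmic axis) in controls (C), moderate (D1) and severe drought (D2), in hybrid 85 (left) and hybrid 89 (right), for 4 groups of genes called in D1. The group in which hybrid 85 was below the controls (437 genes) is low in D2 in both hybrids. The group in which hybrid 85 was above them (507 genes) has medians of 20.9 RPKM in D1 and 6.46 RPKM in D2 in hybrid 85. Its D1 level above the controls is part of the choice of genes, which also favours a D1 level above D2.

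Whether the D1 difference of a gene departed from its control difference was tested directly. No gene passed (limma, smallest adjusted p = 0.0616, 0% of the genes), with 4437 genes, 16.5% of those tested, at an unadjusted p below 0.05; limma-voom on the recovered reads also called none, with 4452. The larger number of calls in D1 than in C therefore does not by itself show which genes changed their hybrid difference. The count moved with 1 library: without replicate 1 of hybrid 85 in C the test called 178 genes, and with each other library left out in turn it called 0. With library quality weights it called 273.

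The genes with the smallest p in that test were of several kinds. Potri.016G135200.1 (chromosome number 16, 765 bp) had 1.23 and 0.817 RPKM in hybrid 85 and 34.4 and 15.9 RPKM in hybrid 89 in D1. Its controls were at 6.72 and 10.9 RPKM in hybrid 85 and at 2.56 and 0.516 RPKM in hybrid 89. The order of the hybrids was opposite in the 2 stages without overlap, and the D1 difference exceeded the control one by 5.65 ± 0.71 on the log2 scale (SE, limma adjusted p = 0.0616). Potri.006G062800.1 (chromosome number 6, 1395 bp) had alike D1 levels, 54.5 and 53.1 RPKM against 55.2 and 80 RPKM. Its controls were at 38.2 and 44.9 RPKM in hybrid 85 and at 7.24 and 5.09 RPKM in hybrid 89, a log2 difference of -2.58 ± 0.26 (SE, limma adjusted p = 0.00253). Here the hybrids stood apart in watered leaves and not detectably in D1, at 0.30 ± 0.26 (SE, limma adjusted p = 0.553). In D2 they were apart again in the direction of the controls, at 58.1 and 51.5 RPKM in hybrid 85 and 16.8 and 20.1 RPKM in hybrid 89.

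Potri.012G141800.1 (chromosome number 12, 576 bp) had 21.3 and 22.8 RPKM in the D1 plants of hybrid 85 and 0.432 and 0.716 RPKM, from 3 reads, in those of hybrid 89. The controls held 3 reads in hybrid 85 and none in hybrid 89. In D2 it reached 140 and 162 RPKM in hybrid 85 and 54 and 78.2 RPKM in hybrid 89, so its transcripts were plentiful in both hybrids under severe drought and far higher in hybrid 85 than in hybrid 89 in D1. The 3 reads of hybrid 89 in D1 give a ratio of 37.5 with an exact counting interval of 12.4 to 186. Potri.005G107700.1 (chromosome number 5, 381 bp) had 89.1 and 64 RPKM against 5.22 and 7.58 RPKM in D1, while all 4 controls lay between 9.74 and 14.5 RPKM. The D1 plants of hybrid 89 were below, and those of hybrid 85 above, every control. The D1 differences were -3.88 ± 0.29 and -3.39 ± 0.33 on the log2 scale (SE, limma adjusted p = 0.000229 and 0.00102), and the departures from the control difference were -3.31 ± 0.41 and -3.58 ± 0.46 (limma adjusted p = 0.0616 for each).

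**Figure D5:**
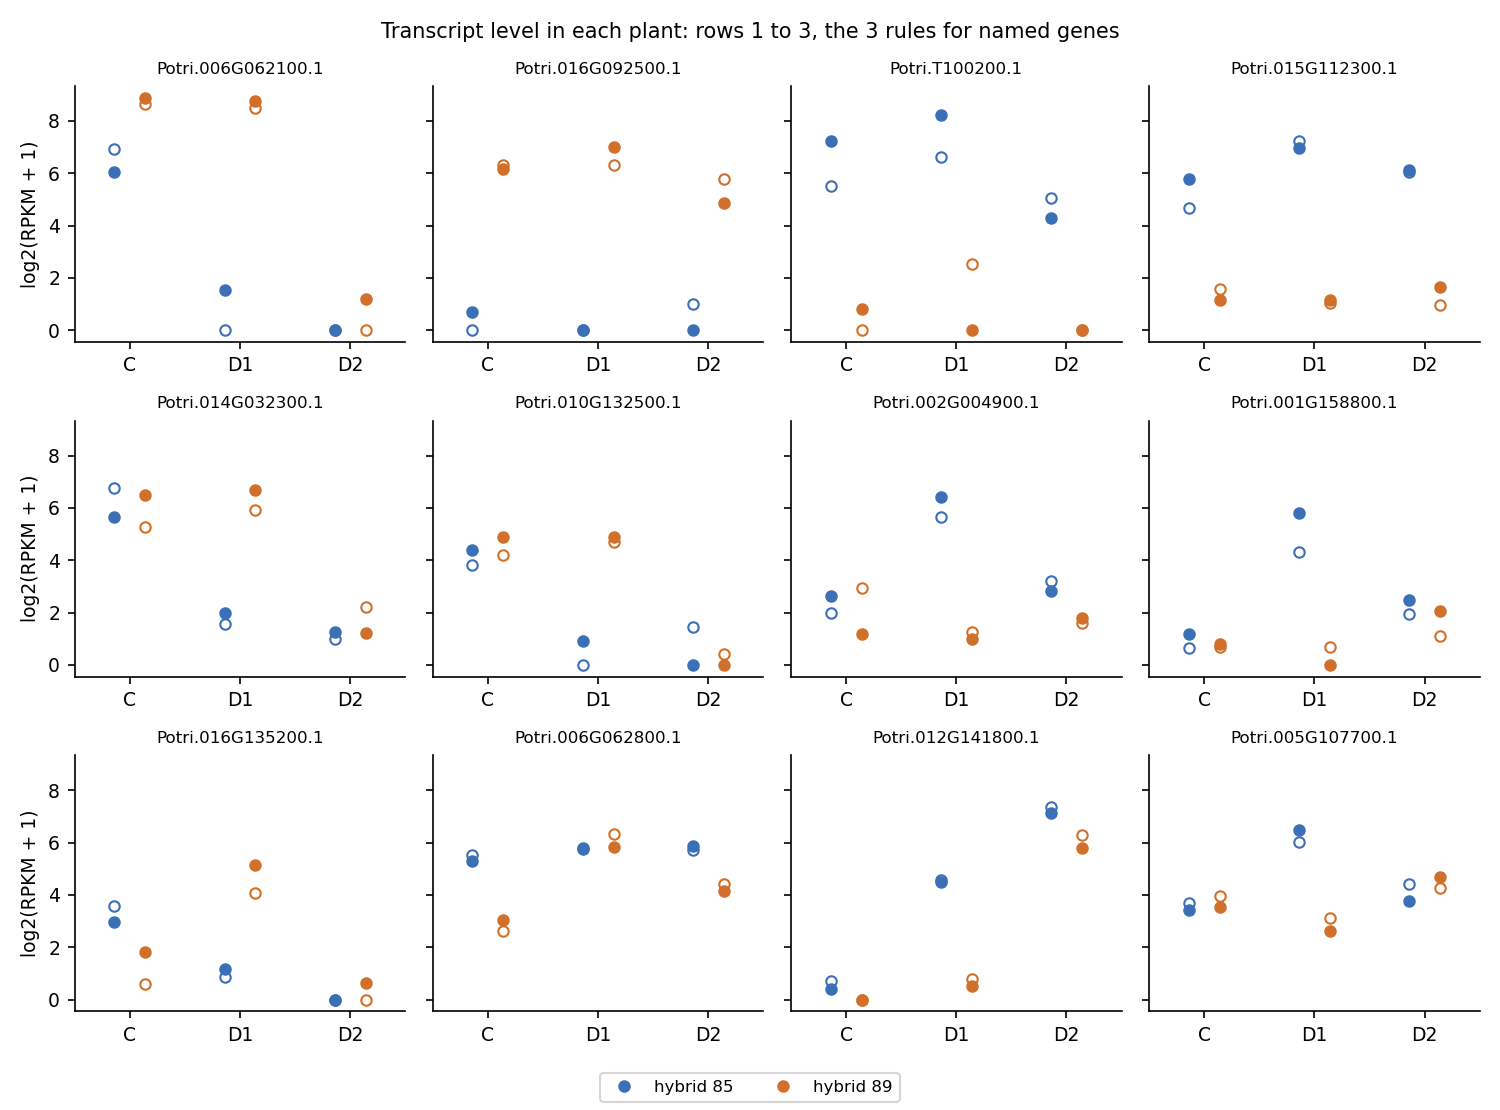
Level of the 12 named genes, as log2(RPKM + 1), in each of the 12 plants by stage, with hybrid 85 in blue and hybrid 89 in orange, replicate 1 filled and replicate 2 open. The top row has the largest D1 differences, the middle row the largest among genes with a control difference within 0.5, and the bottom row the smallest p for D1 against C; in the middle row the D1 points of the hybrids are far apart while their control points mingle or lie close together.

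Some transcripts were read in the D1 leaves of 1 hybrid and hardly in the other. Limits were set at 10 or more reads in both D1 plants of 1 hybrid and at most 3 reads over both of the other. Of the 26863 genes tested, 326 met them with reads in hybrid 89 and 94 with reads in hybrid 85. The fit called 214 of the 326 and 85 of the 94 in D1, and the others did not pass the test. The D1 libraries of hybrid 89 were the deeper ones. At equal depth, set by the shallowest library, 172 and 115 genes met these limits, of which the fit at full depth called 149 and 104. In the controls 29 genes met them for reads in hybrid 89 and 50 for reads in hybrid 85, so the larger count was on the other side there (28 and 51 as sequenced). Of the 172 genes hardly read in hybrid 85 at that depth, 52 (30.2%) had at least 10 reads in both controls of hybrid 85, so their transcripts had been present in watered plants of that hybrid, and 32 were hardly read there either. Of the 115 genes hardly read in hybrid 89, 3 (2.61%) had at least 10 reads in both controls of hybrid 89 and 71 were hardly read there. The same limits were met in both D1 and C by 14 and 17 genes, and in all 3 stages by 5 and 4.

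The D1 differences were spread over the whole gene set. By chromosome number in the ID, 5.83% (number 3) to 8.7% (number 19) of the tested genes were called, and 11.2% of the genes whose ID has no number. Genes called in the controls were less even, from 0.0858% on number 9 to 2.34% on number 19. Numbers 17 and 19 and the IDs without a number, picked after these values were seen, held 9.92% of the genes tested, 13.1% of the D1 calls and 30.7% of the control calls. A tested gene that followed a D1 call in ID order on the same chromosome number was called in the same direction in 7.58% of cases for genes higher in hybrid 89 and in 10.2% for genes lower in it, against 3.83% and 3.36% of all genes. Runs of 3 or more such neighbours numbered 4 and 13.

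The split by direction differed with level in the deposited scaling and at unequal depth. It was not repeated at equal depth or with the other scalings, which changed the balance over all calls. Of 11200 genes with a mean under 5 RPKM over the 12 libraries, 466 were higher and 308 lower in hybrid 89 in D1. Of 3093 genes with 50 to 500 RPKM, 90 were higher and 179 lower. The median difference of all genes in these classes went the same way, 0.19 and -0.12 on the log2 scale. Among 233 genes of 500 RPKM or more, 4 were higher and 8 lower. By coding length the called share moved little, from 6.92% in the shortest to 7.57% in the longest of 4 equal classes.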

How the data were processed

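The authors deposited RPKM values, 1 column per library, as the file header shows; 3 mean columns were not used. Reads were trimmed with Trimmomatic 0.32, a tool that the submitters' processing notes list. Aligner, read counter, strand use and genome build: not given in the sources used here. Columns were matched to samples by hybrid and clone number. The table holds 41335 gene IDs.

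From the step between RPKM values, library totals, coding lengths (multiples of 3 bp) and reads were recovered. Nonzero values gave whole reads in 100% of cases, with a tolerance of 0.01 reads.

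Tests kept genes that reached 1 RPKM in 2 or more libraries, and log2(RPKM + 1) was fitted with limma 3.58.1 in R 4.3.3, as 6 groups of 2 libraries with a trended variance and 6 residual degrees of freedom. Fold changes on this scale understate low genes. The contrasts were D1 and C, hybrid 89 minus 85, and their difference. Two-sided p-values were adjusted over all 26863 genes.

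Named genes were taken by ID. Eligible genes had adjusted p below 0.05 in D1, a mean of at least 5 RPKM over the D1 libraries and no overlap of the hybrids. The largest differences came from these, and again from those with a control difference within 0.5. For D1 against C, genes came from the 5 smallest p-values among those with a mean of at least 5 RPKM over the C and D1 libraries. As the IDs carry no names, 2 genes per direction were kept and the planned lists by product name were not run. The members and lists were chosen with earlier results of these data known. Thinning to the shallowest library, and the counts against the control range under other scalings, were added after seeing the data. P-values set each difference against a spread between plants estimated over all 12 libraries, D2 included. With 2 plants a side, they concern these plants.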

Additional observations from a re-analysis of the deposited data

How the results depend on the processing

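No direction reversed among the D1 differences of the 8 genes named for D1 or the D1 against C differences of the other 4; the remaining differences printed for these genes were not run under the alternatives. In D1 the 1030 higher and 903 lower genes became 0 and 0 with the D1 libraries alone and 2413 and 1813 with library quality weights. Leaving out each library gave 151 to 1325 higher and 106 to 1180 lower genes; 209 genes were called in the same direction in all 12 of these fits. In C the 65 higher genes were 39 with a pseudocount of 0.1 and 109 when recovered reads were fitted with limma-voom, the 85 lower were 55 with the C and D1 libraries only, and the leave-one-out ranges were 17 to 72 and 13 to 94. The test of D1 against C called 0 genes, 3 without a filter on low values, 273 with quality weights, and 0 to 178 with a library left out. The causes of these moves were not tested. With the replicate block 860 genes were higher and 775 lower in D1, 63 and 73 in C, and 0 for D1 against C. The numbers pair no plants by the labels, and same-numbered deviations correlated at -0.0328 in D1. The 8 genes named for D1 each failed only with the D1 libraries alone (adjusted p = 0.0632 to 0.091). Thinned to the shallowest library, 690 genes were higher and 669 lower. The few reads of low genes limit what 2 plants a side can show.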

Other observations

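The hybrid difference under severe drought was measured in other plants than the D1 means, but the D2 libraries entered the D1 calls through the spread: without 1 of them the 1933 calls became 1574 to 2504. Of the 1030 genes higher in hybrid 89 in D1, 615 (59.7%) had a positive difference in D2, against 49.4% of all genes tested, with a median of 0.20 on the log2 scale. Of the 903 lower, 656 (72.6%) had a negative one, against 47.2%, with a median of -0.41. The D1 medians of the same genes were 1.94 and -1.99. Across all genes the D1 and D2 differences correlated at r = 0.199. Of the 209 genes called in D1 whichever library was left out, 112 were higher and 97 lower in hybrid 89, and 54 were among the 150 genes called in the controls.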
